A study of Macaca fascicularis with 22 samples.

Results

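The contractile genes of smooth muscle were followed across the tissue labels and birth weight groups of newborn female cynomolgus macaques. They were chosen by name, by 9 human RefSeq accessions: ACTA2 (NM_001613), ACTG2 (NM_001615), MYH11 (NM_002474), TAGLN (NM_003186), CNN1 (NM_001299), DES (NM_001927), SMTN (NM_006932), LMOD1 (NM_012134) and MYLK (NM_053025). Of these, 7 had a probe among the 20217 probes of the array, each in 2 spots, and no probe carried the accessions of MYH11 and SMTN. No probe of the 7 was lost to the filter on dim signals, since each was well above background on all 22 arrays, and none was flagged as saturated. RNA was hybridized to single-colour Agilent rhesus macaque arrays. Skeletal muscle gave 4 arrays of average birth weight (ABW, 50th to 75th centile) and 4 of lower birth weight (LBW, 5th to 25th centile), umbilical cord 4 and 4, and liver 3 and 3, by the sample labels. All dams had been mated naturally with the same male, and birth weight varied spontaneously, with no treatment and no altered gene in either group. The study takes cord at birth and liver and biceps femoris a few days later, while the labels place every tissue at birth, and the sources used here do not say which arrays came from the same neonate.

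Smooth muscle contracts when calcium-bound calmodulin activates myosin light chain kinase, which phosphorylates the light chains of smooth muscle myosin so that it can pull on actin filaments. Proteins such as calponin, transgelin and leiomodin bind these filaments, and desmin filaments tie the contractile units to each other and to the cell surface. In a cord these genes belong to the walls of the umbilical arteries and vein, and in a liver to the walls of its vessels and, for some of them, to activated stellate cells, while hepatocytes make little of any of them. Skeletal muscle fibres make desmin in quantity but use other actins, myosins and calcium switches.

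The arrays labelled as liver and as umbilical cord did not carry the markers of those tissues. The marker lists were written with earlier results of these data known. All 14 hepatocyte genes on the array had their highest mean on the cord-labelled arrays. Each lay higher there on every array than on every liver-labelled array, and 8 were above background on no liver-labelled array. In limma all 14 were higher there than on the liver-labelled arrays at an adjusted p under 0.05, as were 35.6% of all probes. The summed level of that list was 1110 to 3254 times the 75th percentile signal on the cord-labelled arrays, 0.235 to 0.753 times on liver-labelled arrays and 0.314 to 33.2 times on those of skeletal muscle. The 9 stroma and matrix genes were all highest on the liver-labelled arrays, with sums of 477 to 625 against 8.57 to 19.6 on the cord-labelled ones. Each of 10 striated muscle genes lay higher on every skeletal muscle array than on any other array. At the same threshold all 10 were lower on both other labels, as were 37.1% (labelled liver) and 35.8% (labelled cord) of all probes. Arrays of those 2 labels are therefore called liver-labelled and cord-labelled throughout. The 75th percentile signal, by which each array was scaled, ran from 315 to 2390 and was lowest on an LBW and highest on an ABW cord-labelled array.

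**Figure D1:**
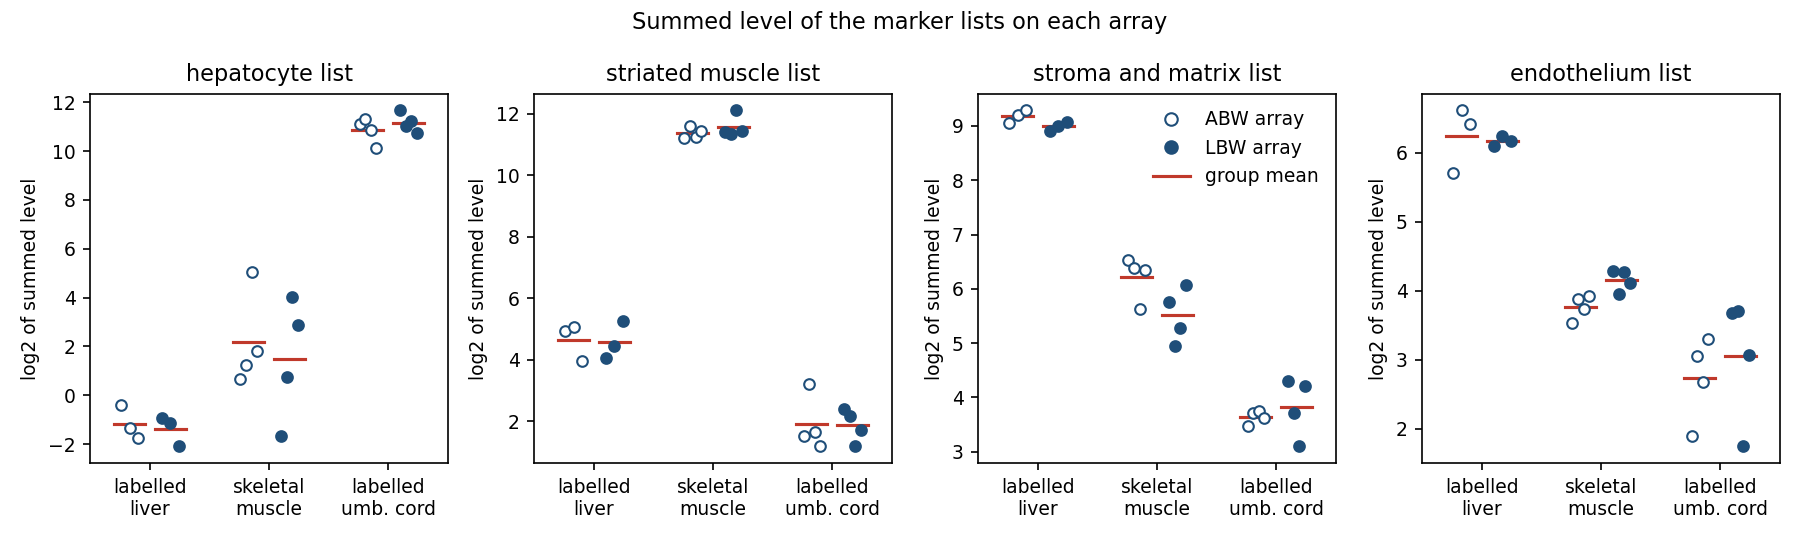
Summed level of 4 marker lists on each array, as log2 of the sum of the scaled signals (vertical axis), by tissue label. Open points are ABW arrays, filled points LBW arrays, and red bars the means of the log2 sums in a group. The hepatocyte list is highest on the 8 cord-labelled arrays and the stroma list on the 6 labelled liver.

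Levels below are log2 signals less the log2 of the array's 75th percentile, so that 0 is that percentile and a step of 1 is a factor of 2. They are set side by side only within a gene, since each probe has its own brightness.

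The smooth muscle actins stood far higher on the liver-labelled arrays than on all others. ACTA2, the alpha-actin of vascular smooth muscle, was at 7.80, 7.78 and 7.61 on the ABW liver-labelled arrays and at 7.95, 7.85 and 7.54 on the LBW arrays. On skeletal muscle it was at 2.53, 2.42, 2.30 and 1.10 in ABW and at 2.07, 1.61, 2.08 and 2.10 in LBW. Cord-labelled levels were 1.07, 1.93, 2.39 and 1.96 in ABW and 2.42, 1.52, 1.21 and 2.46 in LBW. The liver-labelled arrays stood clear of the rest by over 5 units, and skeletal muscle and labelled cord overlapped over nearly their whole range. ACTG2, the gamma-actin of visceral smooth muscle, was at 8.47, 8.42 and 8.21 in ABW and 8.46, 8.48 and 8.17 in LBW labelled liver. Its skeletal muscle levels were 0.89, 0.39, 0.33 and -0.90 in ABW and -0.081, -0.80, -0.79 and 0.22 in LBW. Labelled umbilical cord gave -1.96, -0.0049, -0.86 and -1.02 in ABW and -0.14, -1.66, -1.68 and 0.74 in LBW. The order was the same as for ACTA2, with the skeletal muscle and cord-labelled arrays again overlapping. On skeletal muscle ABW replicate 1 the 2 spots of ACTG2 disagreed, with signals of 3.80 and 2965 of which the first was not above background, so that its level there rests on 1 bright spot averaged with a dim one. The coding sequences of the actin genes are close to each other, and the sources used here do not say whether these probes tell them apart.

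Among the actin-binding proteins, TAGLN (transgelin, SM22-alpha) had the same order of labels as the actins. It was at 8.44, 8.29 and 8.27 in ABW and 8.13, 8.47 and 8.23 in LBW labelled liver. On skeletal muscle the levels were 3.61, 3.20, 2.95 and 2.27 in ABW and 2.72, 2.25, 1.96 and 2.95 in LBW. On the cord-labelled arrays they were 1.10, 1.26, 1.85 and 1.07 in ABW and 1.75, 1.18, 0.72 and 2.74 in LBW. LBW replicate 4 was the cord-labelled array that reached well into the skeletal muscle range, and the liver-labelled arrays again stood alone. CNN1 (calponin 1, which holds back the myosin motor on actin) was at 3.78, 3.49 and 3.78 in ABW and 3.79, 4.28 and 4.25 in LBW labelled liver. Skeletal muscle gave -0.42, -2.48, -2.81 and -4.45 in ABW and -3.75, -2.01, -4.06 and -3.92 in LBW. Labelled umbilical cord gave -5.15, -4.64, -5.22 and -6.49 in ABW and -3.08, -4.45, -4.46 and -4.28 in LBW. CNN1 was the most uneven of the 7 genes on skeletal muscle, with an SD of 1.34 (n = 8), and on the cord-labelled arrays its spots were dim, with signals of 13.1 to 56.0. LMOD1 (leiomodin 1, which nucleates actin filaments in smooth muscle) was at 2.96, 3.00 and 3.08 in ABW and 3.51, 3.71 and 3.54 in LBW labelled liver. On skeletal muscle it was at -0.29, 0.25, 1.27 and 1.04 in ABW and at 2.08, 0.0095, 0.29 and 0.58 in LBW. On the cord-labelled arrays all levels of LMOD1 lay between -5.06 and -3.55, and its spots were dim too, with signals of 13.7 to 83.5. The 3 labels did not overlap for LMOD1, and labelled umbilical cord was the lowest.

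MYLK, the kinase that starts contraction, had another order. It was at 5.26, 5.02 and 5.23 in ABW and 4.98, 5.81 and 5.32 in LBW labelled liver. On the cord-labelled arrays it was at 0.92, 0.43, -0.76 and 1.08 in ABW and at 0.43, 1.67, 0.83 and 1.01 in LBW. Skeletal muscle gave -0.54, -0.63, -0.95 and -1.40 in ABW and -1.05, -1.03, -1.46 and -0.96 in LBW. MYLK was thus lowest on skeletal muscle, where ABW replicate 3 was the cord-labelled array inside that range. DES (desmin, shared by smooth and striated muscle) was high on skeletal muscle, at 7.83, 8.12, 7.90 and 8.12 in ABW and 7.94, 8.17, 8.67 and 7.92 in LBW. It was nearly as high on the liver-labelled arrays, at 7.51, 7.62 and 7.47 in ABW and 7.66, 7.63 and 7.40 in LBW. Cord-labelled levels of DES were 5.01, 5.19, 6.94 and 2.46 in ABW and 7.45, 3.84, 5.15 and 2.35 in LBW. The cord-labelled arrays spread over a 34.1-fold range for DES, against 1.79-fold on skeletal muscle and 1.20-fold on liver-labelled arrays. DES signals before scaling were bright and close together on skeletal muscle (146034 to 186313) and on the liver-labelled arrays (148544 to 175572). The summed level of the striated muscle list on the 8 cord-labelled arrays lay between 2.27 and 9.34 times the 75th percentile signal. It was at 5.30 on LBW replicate 1 and 3.11 on ABW replicate 3, the 2 arrays with the most DES, and at 3.27 and 2.31 on LBW replicate 4 and ABW replicate 4, the 2 with the least, and its part in DES was not tested.

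**Figure D2:**
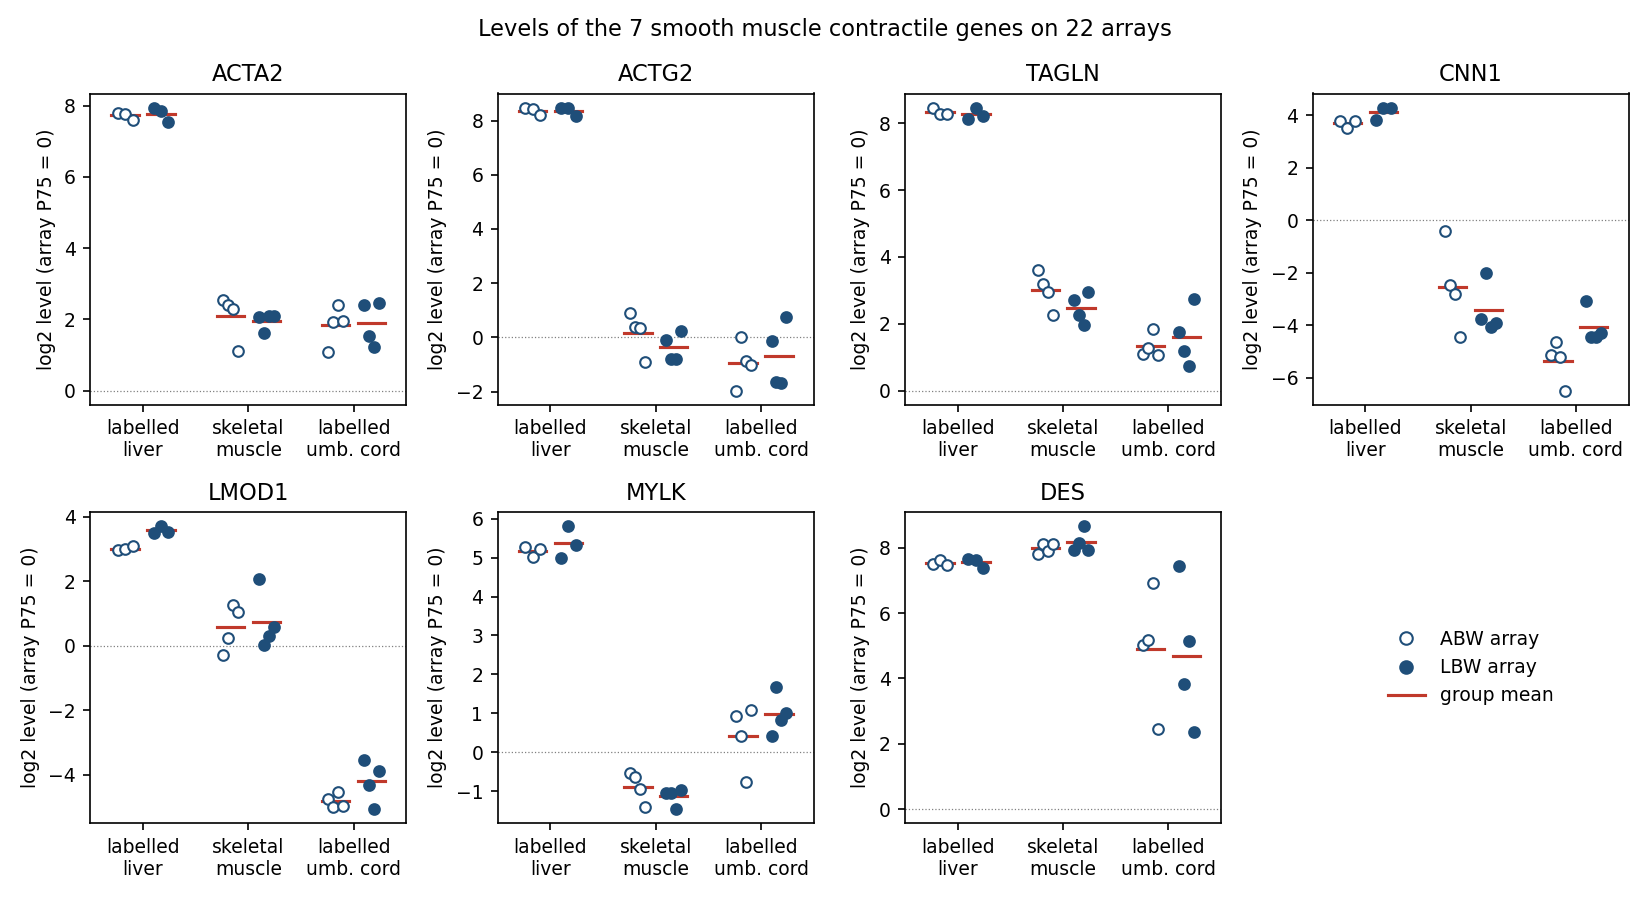
Level of each of the 7 genes on each array (vertical axes, log2 of the signal over the array's 75th percentile signal, with 0 dotted), by tissue label. Open points are ABW arrays, filled points LBW arrays, and red bars group means. For ACTA2, ACTG2, TAGLN, CNN1, LMOD1 and MYLK every liver-labelled array lies above all others, while DES is highest on skeletal muscle and spread from 2.35 to 7.45 on the cord-labelled arrays.

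The first comparison set the cord-labelled arrays against liver-labelled arrays, as the mean of the ABW and LBW group means in a limma fit of all 22 arrays. All 7 genes were lower on the cord-labelled arrays at a Benjamini-Hochberg adjusted p under 0.05 over 17117 probes, a call made in this direction for 31.3% of all probes. ACTG2 had the largest difference, -9.19 (SE 0.38), or 585-fold with a 95% interval of 339 to 1007. It was -8.62 (SE 0.47) for CNN1, -7.81 (SE 0.30) for LMOD1, -6.85 (SE 0.27) for TAGLN, -5.88 (SE 0.25) for ACTA2 and -4.57 (SE 0.26) for MYLK. The adjusted p of these 6 lay between 1.05e-14 and 3.53e-12 in limma. CNN1 and LMOD1 were dim on the cord-labelled arrays, and over the alternatives their differences ran from -9.16 to -7.05 and from -8.50 to -6.24. DES differed by -2.75 (SE 0.61), or 6.72-fold, with an adjusted p of 0.00056 in limma. For 6 of the 7 genes, all but DES, every liver-labelled array lay above every cord-labelled array, as did 19.3% of all probes. In exact two-sided permutation tests of the difference of means these 6 had p = 0.00067, the smallest that 3003 divisions of 8 and 6 arrays allow, and DES had p = 0.0013. The median difference of the 7 genes was -6.85, against 0.13 for all probes. Within slide 4, which held 2 arrays of each label (ABW cord and LBW liver), the 7 differences ran from -9.31 for ACTG2 to -2.41 for DES, and each passed the same threshold. In whole-tissue RNA, fewer cells of a type and less RNA per cell cannot be told apart.

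The second comparison set the liver-labelled arrays against skeletal muscle, which lay on slides of its own, so that tissue and slide cannot be told apart in it or in the third comparison. ACTG2 was higher by 8.46 (SE 0.38), CNN1 by 6.88 (SE 0.47), MYLK by 6.27 (SE 0.26), ACTA2 by 5.73 (SE 0.25), TAGLN by 5.57 (SE 0.27) and LMOD1 by 2.65 (SE 0.30). These 6 genes were called higher, as were 28.1% of all probes, with adjusted p from 4.20e-14 to 2.27e-07 in limma. The gap was 352-fold for ACTG2 and 6.26-fold for LMOD1. For the same 6 genes every liver-labelled array lay above every skeletal muscle array, which held for 19.1% of all probes. DES differed by -0.53 (SE 0.61, 95% interval -1.82 to 0.75, adjusted p = 0.458 in limma). The limma spread of DES is pooled with the uneven cord-labelled arrays, and its 6 and 8 arrays did not overlap here (exact two-sided permutation p = 0.00067). The direction of DES turned with the scaling, to 0.19 when arrays were scaled to the spike-in controls.

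The third comparison set the cord-labelled arrays against skeletal muscle, and here the genes parted. LMOD1 differed by -5.16 (SE 0.28), or 35.8-fold, and DES by -3.28 (SE 0.57), or 9.74-fold. With its dim spots on the cord-labelled arrays, the LMOD1 difference ran from -5.31 to -3.64 over the alternatives. CNN1 differed by -1.74 (SE 0.44, adjusted p = 0.00167) and TAGLN by -1.28 (SE 0.25, adjusted p = 0.000149) in limma. These 4 genes were called lower, as were 35.8% of all probes. MYLK was called higher, as were 29.1% of all probes, by 1.71 (SE 0.24), a 3.26-fold difference (adjusted p = 2.88e-06 in limma). ACTA2 differed by -0.15 (95% interval -0.65 to 0.34, adjusted p = 0.585) and ACTG2 by -0.73 (-1.46 to -0.0054, adjusted p = 0.0718), so that neither passed in limma. The exact permutation p of the 5 genes called ran from 0.00016 to 0.0076, and it was 0.54 for ACTA2 and 0.098 for ACTG2. This comparison depended on the scaling: with spike-in controls the median difference of all probes moved from -0.11 to 1.18, TAGLN was at 0.016 and CNN1 at -0.44 with no call, ACTA2 and ACTG2 turned to 1.14 and 0.56 with no call, and the calls of LMOD1, DES and MYLK stayed.

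**Figure D3:**
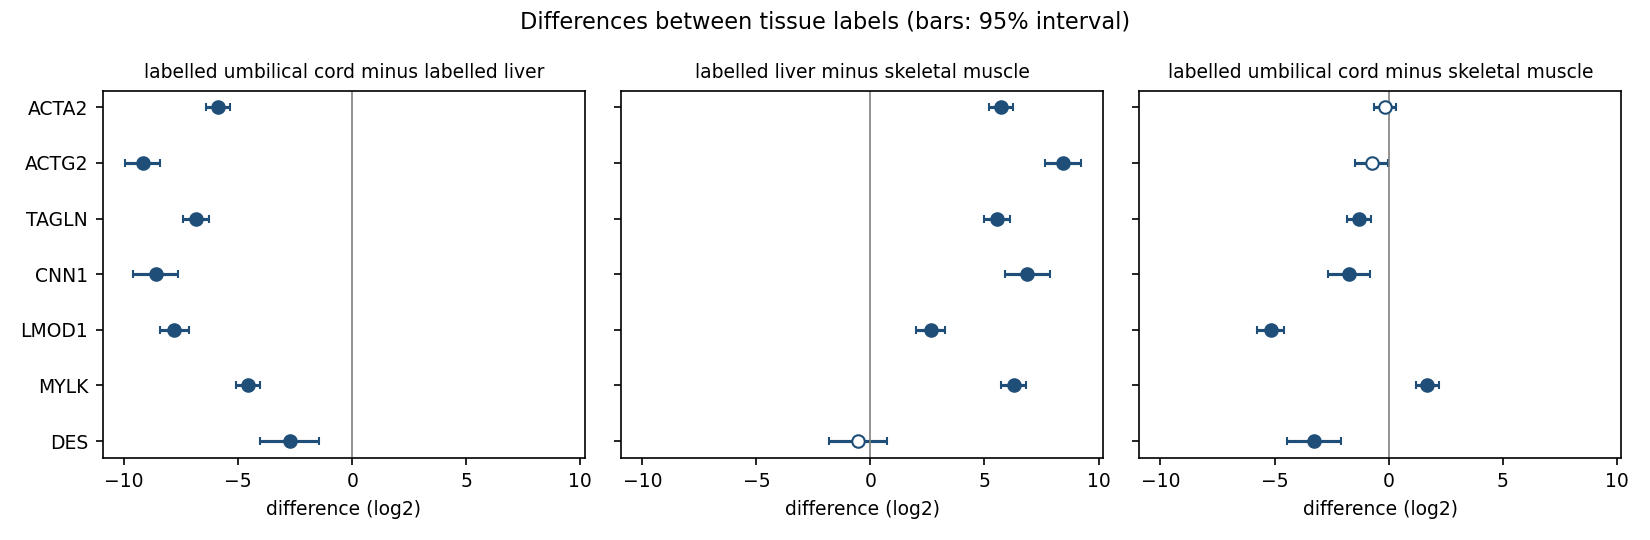
Difference between tissue labels for each gene (horizontal axis, log2), with 95% intervals of the limma fit of 22 arrays. Filled points passed an adjusted p of 0.05 and open points did not. All 7 genes are lower on the cord-labelled arrays than on liver-labelled arrays, while ACTA2 and ACTG2 have open points between labelled cord and skeletal muscle.

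A list of 46 accessions of other genes of smooth muscle contraction and its control was written from general knowledge. Earlier results of these data were known when it was written, so its counts are description and no independent test. It held tropomyosins, caldesmon, filamin, kinases, channels, receptors and transcription factors. Of its accessions, 37 were on the array and 36 were tested. Their symbols are those written beside the accessions in that list, except FHL1, MKL1 and MCAM, which the study's own table pairs. Of the 36, 34 were lower and 1 higher on the cord-labelled arrays than on liver-labelled arrays, with a median difference of -3.50, where 31.3% of all probes were lower and 35.6% higher. In the comparison with skeletal muscle, 25 were higher and 7 lower on the liver-labelled arrays, where 28.1% of all probes were higher and 37.1% lower. Of the same 36, 24 were lower and 8 higher on the cord-labelled arrays than on skeletal muscle, where 35.8% of all probes were lower and 29.1% higher. With spike-in scaling 13 were lower and 10 higher, where 7.48% of all probes were lower and 46.7% higher. With normexp background correction 22 were lower and 5 higher, where 27.7% of all probes were lower and 24.1% higher.

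Several of these genes stood highest on the liver-labelled arrays. KCNMB1 (NM_004137), a subunit of the calcium-activated potassium channel that relaxes vascular smooth muscle, was 8.15 (SE 0.38) higher on the liver-labelled arrays than on skeletal muscle. SYNPO2 (NM_133477, an actin-bundling protein) was 5.96 (SE 0.26) higher and ACTN1 (NM_001102, alpha-actinin of non-striated cells) 4.94 (SE 0.19) higher. Unlike LMOD1, DES, CNN1 and TAGLN, which were called lower there, KCNMB1 and ACTN1 were called higher on the cord-labelled arrays than on skeletal muscle (1.28, SE 0.35, adjusted p = 0.0034, and 0.48, SE 0.17, adjusted p = 0.021, in limma). KCNMB1 was dim on both, with mean levels of -4.19 on the cord-labelled arrays and -5.48 on skeletal muscle. Its differences given here thus rest on weak signals, and its values in the alternatives are not given. FLNA (NM_001456, filamin A, an actin crosslinker) was lower on the cord-labelled than on the liver-labelled arrays (-6.91, SE 0.28). Other genes of the list had their highest mean on skeletal muscle. PDLIM3 (NM_014476, a Z-disc protein) and CRYAB (NM_001885, a chaperone of desmin) were lower on the cord-labelled than on the liver-labelled arrays (-6.96, SE 0.26, and -7.61, SE 0.21), and lower still against skeletal muscle (-9.68, SE 0.24, and -9.73, SE 0.19). FHL1 (NM_001449), a LIM protein of striated muscle, was lower on the liver-labelled arrays than on skeletal muscle (-3.65, SE 0.20), and so was TPM1 (NM_000366, alpha-tropomyosin; -7.85, SE 0.28).

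The 2 transcripts listed for beta-tropomyosin, TPM2, went opposite ways between the liver-labelled arrays and skeletal muscle, and both were lowest on the cord-labelled arrays. NM_003289 was at 7.92 to 8.17 on skeletal muscle, at -2.29 to -0.76 on the liver-labelled arrays and at -6.0 to -2.65 on cord-labelled arrays. NM_213674 was at 7.45 to 7.93 on the liver-labelled arrays, at 3.09 to 4.46 on skeletal muscle and at 0.41 to 1.74 on cord-labelled arrays. Against skeletal muscle the first differed by -9.37 (SE 0.36) on the liver-labelled and by -12.82 (SE 0.33) on the cord-labelled arrays, and the second by 3.71 (SE 0.21) and -3.00 (SE 0.19). AGTR1 (NM_000685), the angiotensin receptor of vessel walls and of liver, was the only gene of the list called higher on the cord-labelled arrays than on liver-labelled arrays, by 5.57 (SE 0.40), and was also 2.66 (SE 0.37) higher than on skeletal muscle. CNN2 (NM_004368, the calponin of many non-muscle cells) and CALD1 (NM_033138, caldesmon) were 1.74 (SE 0.36) and 1.34 (SE 0.24) higher on the cord-labelled arrays than on skeletal muscle. The other differences given for genes of this list had adjusted p between 5.77e-19 and 0.000285 in limma.

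Among markers of other cell types, the stroma genes and most blood probes were higher on the liver-labelled arrays, as most contractile genes were, and only some endothelial genes were. All 9 stroma and matrix genes were higher on the liver-labelled arrays than on both other labels, where 28.1% (against skeletal muscle) and 31.3% (against labelled cord) of all probes were. Of 7 endothelial genes, 2 were higher and 1 lower against skeletal muscle, with a median difference of -0.36, and 3 were higher and none lower against labelled cord. Of 6 blood probes, all were higher than on skeletal muscle, and 4 were higher and 1 lower than on the cord-labelled arrays. Of all probes, 37.1% were lower on the liver-labelled arrays than on skeletal muscle and 35.6% lower than on labelled cord. Sums of the blood list were 127 to 777 on the liver-labelled arrays, 54.5 to 186 on the cord-labelled ones and 4.43 to 60.9 on skeletal muscle. For the endothelial list, sums were 52.2 to 98.1 on the liver-labelled arrays, 3.35 to 13.1 on the cord-labelled ones and 11.6 to 19.6 on skeletal muscle. A sum gives most weight to the brightest probes, unlike the counts and the median. The part of these cell types in the levels of the contractile genes was not tested.

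Over the 22 arrays the mean of the 7 standardised levels was followed most closely by TAGLN (r = 0.987), CNN1 (0.981), ACTG2 (0.971) and ACTA2 (0.961), then by LMOD1 (0.873) and MYLK (0.816), and least by DES (0.514). Of all other probes the closest were NM_153225 (r = 0.990), NM_182947 (0.990), NM_015927 (0.988, entered in the list above as TGFB1I1), NM_001759 (0.988) and NM_002006 (0.987), all highest on the liver-labelled arrays and lowest on cord-labelled arrays. Such r describe 3 tissue labels more than 22 separate points. Each of the 7 genes is also part of the mean, which raises its own r, here and after removal of group means. The r of the 7 genes are therefore not comparable with those of other probes. After each array was reduced by its group mean, r with the mean of the 7 was 0.861 for TAGLN, 0.852 for ACTG2 and 0.837 for ACTA2, but 0.615 for CNN1, 0.310 for LMOD1, 0.169 for DES and -0.025 for MYLK. The closest other probe was again NM_153225 (0.830), before NM_000188 (0.827), NM_031286 (0.801), NM_004107 (0.786) and NM_017982 (SUSD4, 0.785).

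The genes were also compared pair by pair over the arrays of 1 label, after removal of group means, for skeletal muscle and the cord-labelled arrays (42 pairs in all). The liver-labelled arrays were not run, with 3 arrays a group. The exact permutation tests exchanged arrays only within ABW and within LBW, in 576 arrangements, and none of the 42 adjusted p of r or of rho was under 0.05. The unadjusted p of r was under 0.05 for 5 of 21 pairs on skeletal muscle and 3 of 21 on the cord-labelled arrays. ACTG2 and TAGLN on skeletal muscle had r = 0.970 and rho = 0.976 (n = 8, exact permutation p = 0.0035 and 0.014, adjusted 0.0729 and 0.225), and r = 0.985 without the 2 arrays farthest from the median. The ACTG2 value of ABW replicate 1 in this pair is the one whose spots disagreed. TAGLN and MYLK there had r = 0.915 and rho = 0.833 (exact permutation p = 0.0035 and 0.021, adjusted 0.0729 and 0.225), and r = 0.697 without 2 arrays. For the cord-labelled arrays the 3 pairs of ACTA2, ACTG2 and TAGLN had r of 0.793 to 0.839 and rho of 0.762 to 0.833, with adjusted p of 0.207 for r by exact permutation. DES had r of -0.725 to -0.214 with the 6 other genes on skeletal muscle (adjusted p of 0.207 or more by exact permutation) and -0.743 to 0.756 on the cord-labelled arrays. On skeletal muscle DES signals before scaling lay at 146034 to 186313, while the 75th percentile signal ran from 359 to 803. LBW replicate 3 had the lowest DES signal and the lowest percentile, and the highest DES level (8.67). The part of the scaling in these r was not tested. The arrays share their scaling across genes, and no slide held over 4 arrays of a label, too few for values within a slide.

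The last question was whether the levels differed between LBW and ABW. None of the 7 genes passed an adjusted p of 0.05 in limma within any tissue label, for the mean of the 3 differences or for their interaction with the tissue label. Of all probes 0% passed in skeletal muscle, 0% labelled liver and 0.625% labelled cord, with 0.888% for the mean and 1.01% for the interaction. At an unadjusted p under 0.05, 0 of 7 genes passed in skeletal muscle, 1 labelled liver (LMOD1), 1 labelled cord (CNN1), 0 for the mean and 0 for the interaction, against 2524, 1025, 1531, 2323 and 1727 of 17117 probes. None of the 36 other contractile genes passed an adjusted p of 0.05 in any of these comparisons, with median differences of -0.040 in skeletal muscle, 0.22 labelled liver and 0.0046 labelled cord.

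For the cord-labelled arrays, 6 of 7 differences were above 0, with a median of 0.28, where 49.1% of all probes were above 0 with a median of -0.0097. With spike-in scaling ACTA2, ACTG2 and TAGLN turned below 0. CNN1 had the largest, 1.31 (SE 0.46, 95% interval 0.29 to 2.32, adjusted p = 0.440 in limma), with every LBW array above every ABW array (exact permutation p = 0.029, the smallest that 4 against 4 arrays allow). Of all probes 5.85% did not overlap in either direction, and CNN1 was the only 1 of the 7. Its signals were dim there: the unscaled spots lay at 17.2 to 27.3 on the ABW arrays and at 13.1 to 56.0 on the LBW arrays, where the 2 spots of an array differed by 1.45 to 3.04 times. On every LBW array the same spot was the brighter, at 29.7 to 56.0 against 13.1 to 31.1 for the other. The separation of the groups was not tested on either spot alone. LMOD1, also dim there (spots of 13.7 to 83.5), was 0.61 (95% interval -0.18 to 1.39) higher in LBW, and MYLK 0.57 (-0.42 to 1.55). These became 0.39 for LMOD1 without LBW replicate 1, and 0.17 or 0.34 for MYLK without ABW replicate 3 or LBW replicate 2. TAGLN differed by 0.28 (-0.68 to 1.23), ACTG2 by 0.28 (-1.06 to 1.61) and ACTA2 by 0.063 (-0.82 to 0.95). The interval of DES, -0.20 (-2.67 to 2.27), was the widest of the 7. LBW arrays all lay on slide 5 and ABW arrays on slides 4 and 6, so no slide held both groups, and against the ABW arrays of slide 4 or slide 6 alone CNN1 differed by 0.83 or 1.79 with no call. Beside these values, no stroma, endothelial, striated muscle or blood marker was called between LBW and ABW cord-labelled arrays. Of 14 hepatocyte genes 2 were called lower in LBW, as were 0.602% of all probes. They were CP (-3.72) and F13B (-3.81), both already among the top cord genes listed by the study. The summed stroma list was at 11.2 to 13.5 in ABW and 8.57 to 19.6 in LBW, and the endothelial list, with 6 of 7 differences above 0, at 3.70 to 9.90 in ABW and 3.35 to 13.1 in LBW.

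On the liver-labelled arrays the intervals were narrower. Before scaling, ACTA2 signals lay there at 179986 to 194214 and DES signals at 148544 to 175572, while the 75th percentile signal ran from 778 to 1042. The level of ACTA2 was highest (7.95) where that percentile was lowest and lowest (7.54) where it was highest. For such bright probes the differences may thus follow the scaling more than the RNA, which was not tested. LMOD1 was 0.57 (SE 0.16) higher in LBW, 1.49-fold, at 3.51 to 3.71 against 2.96 to 3.08 (95% interval 0.18 to 0.97, adjusted p = 0.783 in limma). CNN1 was 0.42 (SE 0.21, 95% interval -0.081 to 0.93, adjusted p = 0.862) higher, with LBW replicate 1 at 3.79 just above the highest ABW array at 3.78. These were the 2 genes with no overlap, against 12% of all probes, and 3 against 3 arrays cannot go below an exact permutation p of 0.10. The other 5 genes differed by -0.058 for TAGLN to 0.20 for MYLK. Within slide 3, which held all ABW arrays and LBW replicate 1, LMOD1 differed by 0.49 and CNN1 by 0.11, and MYLK turned to -0.19.

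In skeletal muscle all groups overlapped for all 7 genes, where 10.5% of all probes did not. The differences ran from -0.90 for CNN1 (95% interval -2.67 to 0.88) through -0.54 for both ACTG2 (-1.44 to 0.36) and TAGLN (-1.27 to 0.19) to 0.18 for DES (-0.30 to 0.66). Without ABW replicate 1, the array with the most CNN1, the difference of CNN1 was -0.19, and without ABW replicate 4 or LBW replicate 2 it was -1.53 or -1.37. ACTG2 turned to 0.41 when spots were averaged as log2 values, which gives the dim spot of ABW replicate 1 more weight. ABW arrays lay on slide 1 and LBW arrays on slide 2, so that in skeletal muscle the slide cannot be told apart from birth weight. All 9 stroma and matrix genes had differences below 0 in skeletal muscle, with a median of -0.72 and no call, where 57.3% of all probes were above 0. Their sums were 49.8 to 92.6 in ABW and 31.0 to 67.0 in LBW. Sums of the hepatocyte list were 1.59 to 33.2 in ABW and 0.314 to 16.1 in LBW. The part of these markers in the differences was not tested.

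**Figure D4:**
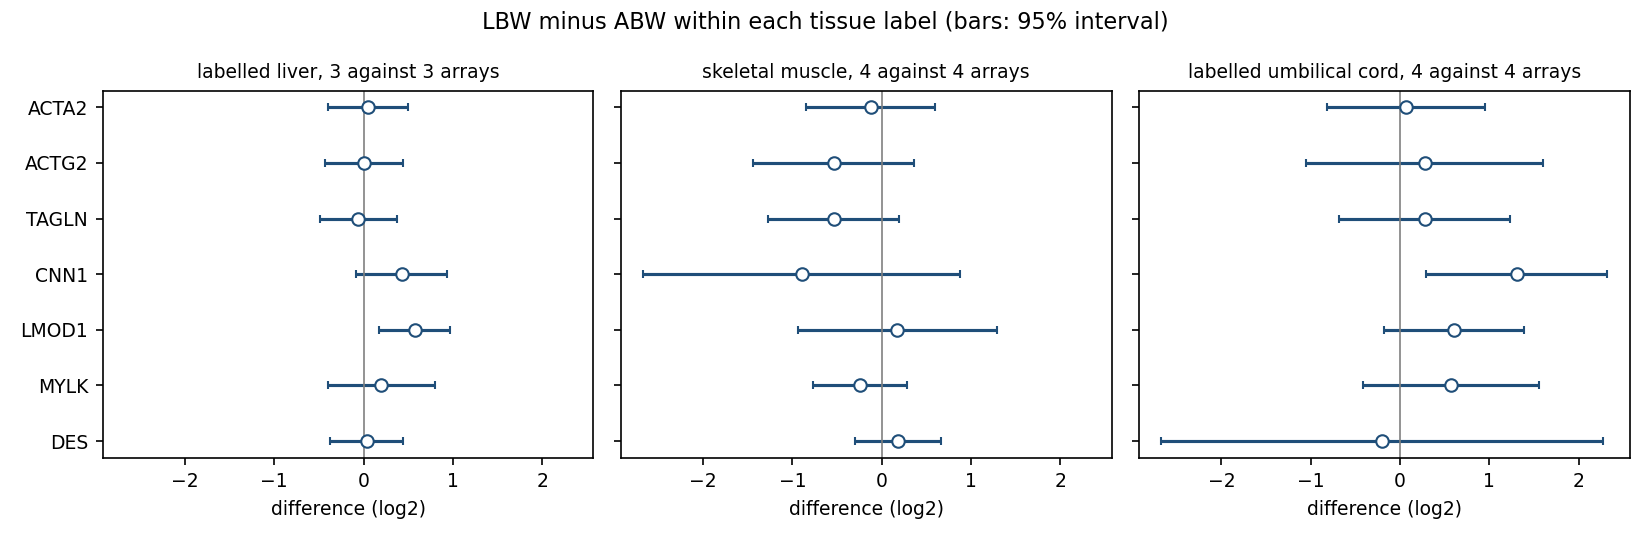
LBW minus ABW for each gene within each tissue label (horizontal axis, log2), with 95% intervals of limma fits of that label's arrays. Every point is open because no adjusted p was under 0.05. The intervals of LMOD1 labelled liver and CNN1 labelled umbilical cord do not reach 0, and that of DES labelled umbilical cord runs from -2.67 to 2.27.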

How the data were processed

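Single-colour Agilent rhesus macaque arrays of 22 samples were used, grouped by the sample labels. The intensity of each spot is, per the file headers, the signal of Feature Extraction (10.1.1.1, and 10.5.1.1 on slide 6) after background subtraction and spatial detrending, deposited with no scaling between arrays, beside median pixel signals. The log2 values in a table also deposited by the authors had been scaled in GeneSpring to the 75th percentile and to a baseline, per their methods, and proved to have a median of 0 per probe within each tissue. They were used as an alternative within tissues.

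Spots were averaged (spots flagged as outliers left out), and log2 signals were reduced by each array's 75th percentile. A probe was kept when 75% or more of the arrays in some group had it well above background, which left 17117 of 20217. The signal over background and the number of arrays limit the precision. The array design names its genes by human accession alone. Symbols of the 7 genes are those by which they were chosen, and 8 of 103 other listed accessions were named by the study's own table. No chromosome positions are given, since the design's build (rheMac2) was not among the references used.

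The models were fitted in R 4.3.3 (limma 3.58.1, with statmod 1.5.0 for slide as a random block), with LBW against ABW on the arrays of each tissue label alone and all else in a fit of the 6 groups. Exact permutation tests used scipy 1.17.1, with tables in pandas 2.3.3 and numpy 2.4.6 (Python 3.11.15). The limma fits of the main comparisons were run on simulated data with independent noise and no effect of slide or shared animal. The fits of the alternatives were not simulated. The p-values measure the spread between the arrays of a group, and any animal shared between tissues was not modelled. The genes and lists were chosen with earlier results of these data known. From the list of other contractile genes, up to 3 in each direction and comparison with the largest difference at an adjusted p under 0.05 were named, with TPM2 NM_213674 and TGFB1I1 named outside this rule after their values were seen. The closest probes were the 5 with the highest r. Of 7 lists, the list of cytoplasmic actins and myosins had 2 probes, both with a higher mean on the arrays labelled liver than on either other label.

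Alternatives covered background correction, scaling, the deposited values, the filter, the methods' t-test, blocks for slide and replicate number, and leaving out each array. Normexp was run on the median signals, since mean signals were not among the columns used here. Averaging spots as log2 values and leaving out slide 6 were chosen after seeing the data. Deviations of same-numbered arrays from their group means had r from -0.287 to 0.381. Arrays of different numbers were not compared, so these r cannot tell whether a number marks a shared neonate. Numbers were not taken as pairs in the main fits.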

Additional observations from a re-analysis of the deposited data

Results flagged for a closer look

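Of 28 groups of 4 arrays tested for an array far from the others, 4 were singled out, and chance alone singles out about 1 group in 20. ACTA2 on skeletal muscle ABW replicate 4 was at 1.10, where the next array was at 2.30, and on skeletal muscle LBW replicate 2 it was at 1.61, where the next was at 2.07. CNN1 on skeletal muscle LBW replicate 2 was at -2.01, where the next array was at -3.75. CNN1 on LBW replicate 1 labelled umbilical cord was at -3.08, where the next array was at -4.28, and without it LBW minus ABW was 0.98 in place of 1.31.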

How the results depend on the processing

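Counts of the 7 genes called stayed at 0 in all alternatives within tissue labels, for the mean and for the interaction, at 7 between labelled umbilical cord and labelled liver, and at 6 between labelled liver and skeletal muscle. Between labelled umbilical cord and skeletal muscle 3 of 7 were called with spike-in scaling in place of 5, and 6 with normexp, with the replicate block and without skeletal muscle ABW replicate 4, cord-labelled ABW replicate 2 or cord-labelled LBW replicate 4, ACTG2 being the addition (adjusted p = 0.011 to 0.047 in limma). Leaving out single arrays gave 5 to 6. With the replicate number as a block the counts were otherwise the same: 0 of 7 within each tissue label, and 7, 6 and 6 between labels. The methods' t-test called CNN1 alone, on the cord-labelled arrays, at its unadjusted p with a 1.5-fold difference, where 5.89% of all probes passed.

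Spike-in scaling turned the sign of ACTA2 (1.14), ACTG2 (0.56) and TAGLN (0.016) for labelled umbilical cord minus skeletal muscle, of DES (0.19) for labelled liver minus skeletal muscle, and for LBW minus ABW of DES (-0.27) and LMOD1 (-0.28) in skeletal muscle, TAGLN (0.098) labelled liver, and ACTA2 (-0.37), ACTG2 (-0.16) and TAGLN (-0.16) labelled umbilical cord. For LBW minus ABW, ACTG2 in skeletal muscle turned to 0.41 with the deposited values and with spots averaged as log2 values, TAGLN labelled liver to 0.079 with quantile normalization, and MYLK labelled liver to -0.19 with slide as a fixed block and within slide 3. Against the ABW arrays of slide 6 alone, ACTA2 labelled umbilical cord turned to -0.27 and DES to 0.0012. None of these passed an adjusted p of 0.05 in limma. The cause was not tested.

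Leaving out single arrays, LBW minus ABW in skeletal muscle ran from -0.45 to 0.027 for ACTA2, from -1.53 to -0.19 for CNN1 and from -0.27 to 0.42 for LMOD1. On the liver-labelled arrays it ran from -0.034 to 0.17 for ACTA2, from -0.076 to 0.10 for ACTG2, from -0.15 to 0.014 for TAGLN, from -0.015 to 0.12 for DES and from -0.023 to 0.39 for MYLK. On the cord-labelled arrays it ran from -0.19 to 0.29 for ACTA2, from -0.20 to 0.61 for ACTG2, from -0.10 to 0.57 for TAGLN, from 0.39 to 0.89 for LMOD1, from 0.17 to 0.79 for MYLK and from -1.12 to 0.58 for DES.

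Over all probes, LBW minus ABW labelled umbilical cord called 107 in the fit of that label alone, 483 in the fit of all 6 groups, 22 with normexp, 2 with spike-in scaling, 65 with quantile normalization and with the replicate block, 182 with slide as a random block, 0 with the methods' t-test, 0 with the ABW arrays of slide 4 alone, and 34 to 94 without single arrays. The mean called 152, 25 with normexp, 7 with spike-in scaling and 90 to 218 without single arrays. The interaction called 173, 33 with normexp, 3 with spike-in scaling, 92 with the replicate block and 118 to 374 without single arrays. LBW minus ABW labelled liver called 0, but 10 with spike-in scaling. Between labelled umbilical cord and skeletal muscle 4982 were higher and 6128 lower, but 7999 and 1281 with spike-in scaling. Between labelled liver and skeletal muscle 4817 were higher and 6357 lower, but 4207 and 1445. Between labelled umbilical cord and labelled liver 6094 were higher and 5363 lower, but 4841 and 2151, and 7599 in all were called within slide 4, with fewer arrays.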
